A study of Homo sapiens with 2 samples.

Results

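Small nucleolar RNA (snoRNA) host genes are transcribed by RNA polymerase II, and most of them carry their snoRNAs in introns. The spliced exons of many hosts code for no protein, whereas the excised introns are trimmed to snoRNAs that guide the modification of ribosomal and spliceosomal RNA. C/D box snoRNAs guide 2′-O-methylation, H/ACA box snoRNAs guide pseudouridylation and scaRNAs are their relatives of the Cajal body. Many host transcripts start with a 5′ terminal oligopyrimidine tract, as the mRNAs of ribosomal proteins do, and are spliced RNAs that ribosomes can engage and that nonsense-mediated decay then removes. GAS5, the growth arrest-specific transcript, is the textbook case of both, although its annotated RefSeq start is not such a tract. The genes described were those whose symbol is SNHG followed by a number, together with GAS5, ZFAS1, EPB41L4A-AS1, DANCR, TAF1D and MEG3. They came to 34 of the 60671 distinct genes of the deposited table, of which 28 carry an SNHG symbol, 33 are long non-coding RNAs and 1, TAF1D, codes for a protein, a subunit of the RNA polymerase I factor SL1.

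RNA was sequenced from C4-2B, an established human castration-resistant prostate cancer (CRPC) cell line, after vehicle or after 1 µM (R)-9b given overnight. (R)-9b is a small-molecule inhibitor of the tyrosine kinase ACK1 (gene TNK2), and the labels state no dose for vehicle and no genetic change in either group. There was 1 poly-A selected library per condition, so that no spread between replicates, no p-value and no test of the treatment can be given, and every interval printed is an exact 95% interval of counting error only. The label for cell type names breast cancer, while the study's methods and the transcripts name prostate.

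All 7 prostate markers were abundant in both libraries, among them KLK3, the gene for prostate-specific antigen, at 146597 and 297728 counts in vehicle and (R)-9b. Among 5 breast markers SCGB2A2 and ANKRD30A were at 0 in both libraries, ESR1 had 2 counts in each, SCGB1D2 went from 34 to 8 counts and PIP from 124 to 595. Among 5 leukocyte markers PTPRC was at 0 in both libraries and LYZ was the highest, at 17 and 31 counts, and the 5 fibroblast and endothelial markers ranged from 0 for DCN to 1114 for COL1A1 in vehicle and from 2 to 2004 for the same genes in (R)-9b. The deposited counts summed to 65207444 in vehicle and 57653965 in (R)-9b. Mitochondrially encoded genes held 1.49% of them in vehicle and 9.54% in (R)-9b. When these genes were left out of the scaling, the calls on the host genes stayed at 3 lower and 2 higher. The scaling method already sets aside genes of extreme ratio, so leaving these out could change little. The unchanged calls do not bear on what the mitochondrial difference means.

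Counts were scaled by the TMM method, and each gene was described by the log2 ratio of (R)-9b to vehicle. A gene was compared when it had at least 10 counts over both libraries, and it was called lower or higher when its whole interval lay beyond a 1.5-fold ratio. Of the 34 host genes 31 were compared. SNHG32, SNHG8 and EPB41L4A-AS1 were called lower after (R)-9b, and SNHG9 and SNHG26 were called higher. Over all 23446 genes compared, 7.74% were called lower and 8.71% higher, so that 3 and 2 of 31 host genes are close to the shares of the whole table. The median log2 ratio was -0.0053 over the 31 host genes and -0.0049 over all genes. The interval lay below 0 for 13 host genes, above 0 for 10 and held 0 for 8. Over all genes it lay below 0 for 31.1% and above 0 for 29.8%. Intervals narrow with depth, and of the 15703 genes with 100 or more counts 6187 lay below 0 and 5469 above. Of the 30 members of that depth 13 lay below and 10 above. By a stricter rule, with the whole interval beyond 2-fold, SNHG9 was the single member called, where 3.44% of all genes were called lower and 4.2% higher. Among the 30 members with 100 or more counts the same 3 were called lower and 2 higher, where 8.15% and 8.18% of all genes of that depth were, and by the 2-fold rule 3.17% and 3.29%. A ratio below 1 was found for 17 of the 31 members and for 50.3% of all genes. The summed counts of the 34 genes were 122916 and 93713, a log2 ratio of -0.15 (-0.17 to -0.14), with single members on both sides of it.

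**Figure D1:**
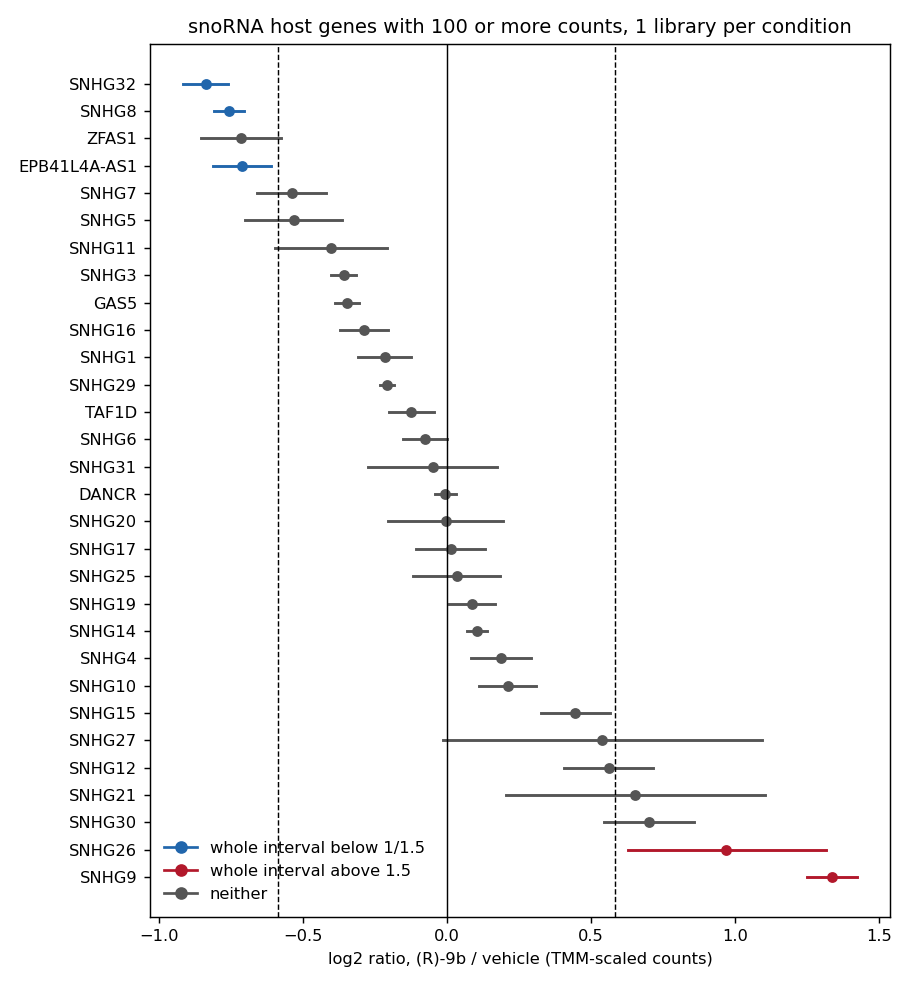
Log2 ratio of (R)-9b to vehicle (horizontal axis, TMM-scaled counts) for the 30 host genes with 100 or more counts over both libraries (vertical axis), with exact 95% intervals of counting error as bars and 1.5-fold lines dashed. The points run from -0.84 for SNHG32 to 1.34 for SNHG9, and the intervals of 5 genes lie wholly beyond a dashed line.

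In the vehicle library SNHG8 had the highest level per length, a scaled CPM of 145 per kilobase of exon, followed by SNHG29 at 119, SNHG19 at 116 and DANCR at 88.0. In the (R)-9b library the order was SNHG19 at 123, SNHG9 at 108, SNHG29 at 103, DANCR at 87.7 and SNHG8 at 85.6 on the same scale. SNHG8 thus passed from rank 1 to rank 5 and SNHG9 from rank 6 to rank 2. SNHG27 had the lowest level of the 30 genes with 100 or more counts, at 0.652 in vehicle and 0.946 in (R)-9b. These levels rest on the annotated exon bases of each gene, and with 1 library per condition the order carries no replicate spread. With snoRNA, scaRNA and miRNA genes set aside, 21 of the 34 members share exon bases with another gene on either strand. Reads in such bases may be missing from the counts. The largest shares not given below, among members with 100 or more counts, were SNHG16 at 30.6%, SNHG6 at 29.3%, SNHG7 at 25.2% and SNHG10 at 20.1%.

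**Figure D2:**
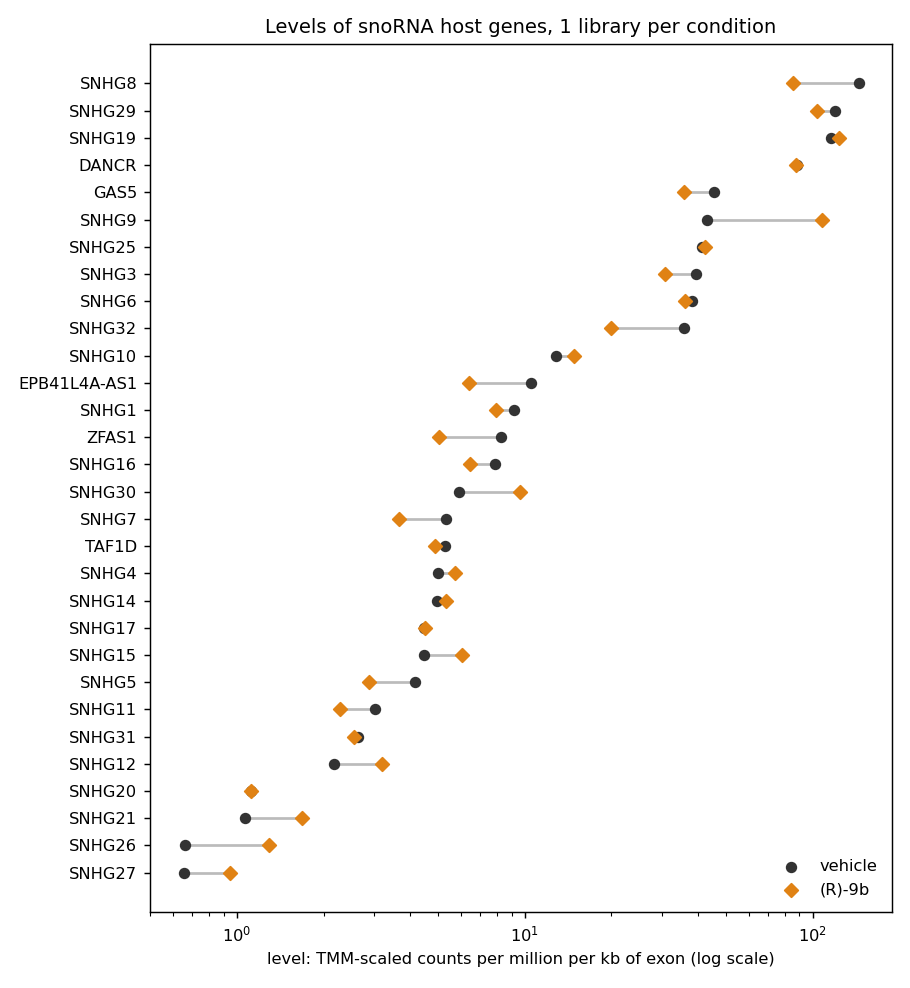
Level of each of the 30 host genes in scaled CPM per kilobase of exon (horizontal axis, log scale), with vehicle as grey circles, (R)-9b as orange diamonds and a line joining the same gene. Most pairs of symbols lie close together, and the long lines are those of SNHG9, from 42.8 to 108, SNHG26, SNHG8 and SNHG32.

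By the RefSeq names inside each host, 12 members host C/D box snoRNAs alone, 11 host H/ACA box snoRNAs alone, 4 host both kinds, 4 host a scaRNA and 3 host none. The hosted RNAs number 123 C/D box snoRNAs, 29 H/ACA box snoRNAs and 4 scaRNAs, and SNHG14 alone holds 83 of the C/D box snoRNAs. Among those compared, the median log2 ratio was -0.21 for 11 C/D hosts, -0.050 for 11 H/ACA hosts, -0.045 for 4 hosts of both and 0.21 for 3 scaRNA hosts. The C/D, the H/ACA and the mixed class each held members with intervals below 0 and members with intervals above 0.

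Among the C/D hosts, SNHG32 (ENSG00000204387, chr6:31834608-31839766, plus strand), the host of SNORD48 and SNORD52, went from 4289 to 2035 counts, or from 64.4 to 36.0 scaled CPM, the count relative to the scaled library total. Its level was 1.79-fold lower after (R)-9b, with a log2 ratio of -0.84 (-0.91 to -0.76). The annotation gives 23.2% of its exon bases to AL671762.1 as well, on the same strand. Reads in these bases are ambiguous and may be missing from the counts. ZFAS1 (chr20:49278178-49295738, plus strand), which hosts SNORD12, SNORD12B and SNORD12C next to ZNFX1, went from 1236 to 639 counts. Its log2 ratio was -0.71 (-0.85 to -0.58), an interval whose upper end lies just inside 1.5-fold, so that it was not called. Of its exon bases 42.9% lie in other genes, on either strand.

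SNHG5, the host of SNORD50A and SNORD50B, had 774 counts in vehicle and 454 in (R)-9b, a log2 ratio of -0.53 (-0.70 to -0.36). SNHG16, the host of SNORD1A to SNORD1C, had 2813 and 1955 counts, a log2 ratio of -0.29 (-0.37 to -0.20). SNHG1, which carries 8 C/D box snoRNAs from SNORD22 to SNORD31, had 2302 and 1681 counts, a log2 ratio of -0.22 (-0.31 to -0.12). All 3 lay below vehicle by more than counting error and within 1.5-fold or across that line. SNHG29, whose 3 snoRNAs include SNORD49A, had the highest counts of all members, 29901 and 21957, and a log2 ratio of -0.21 (-0.23 to -0.18). SNHG6, the host of SNORD87, had 3160 and 2544 counts, a log2 ratio of -0.075 whose interval reached 0.00074.

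The other C/D hosts that were compared lay above vehicle. SNHG19, the host of SNORD60, had 2647 and 2384 counts, which after scaling gave a log2 ratio of 0.087 (0.0064 to 0.17). SNHG14, the long transcript of the imprinted Prader-Willi region that carries the SNORD115 and SNORD116 clusters, had 14299 and 13034 counts and a log2 ratio of 0.10 (0.070 to 0.14). SNHG30, the host of SNORD7, had 591 and 815 counts, a log2 ratio of 0.70 (0.55 to 0.86) whose lower end stayed inside 1.5-fold. SNHG26 (ENSG00000228649, chr7:22854178-22861579, plus strand), the host of SNORD93, had 115 counts in vehicle and 191 in (R)-9b. Its level was 1.96-fold higher after (R)-9b, with a log2 ratio of 0.97 (0.63 to 1.32). SNHG18, the host of SNORD123, had 0 counts in vehicle and 2 in (R)-9b and was not compared.

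Among the H/ACA hosts, SNHG8 (ENSG00000269893, chr4:118278709-118279823, plus strand), the host of SNORA24, went from 8890 to 4459 counts, or from 134 to 79.0 scaled CPM. It was 1.69-fold lower after (R)-9b, with a log2 ratio of -0.76 (-0.81 to -0.71). Its annotated exon bases include the 131 bases of SNORA24. With snoRNA, scaRNA and miRNA genes set aside, SNHG8 shares no exon base with another annotated gene. EPB41L4A-AS1 (ENSG00000224032, chr5:112160526-112164276, plus strand), the host of SNORA13 and antisense to EPB41L4A, went from 2339 to 1211 counts. Its log2 ratio was -0.71 (-0.81 to -0.61), and 49.6% of its exon bases overlap EPB41L4A on the opposite strand. The strand setting of the counting is not given in the sources used here. If strand was not used, reads in the shared bases were ambiguous and may be missing from the counts.

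SNHG7, which hosts SNORA17A and SNORA17B, had 1538 and 898 counts in vehicle and (R)-9b, a log2 ratio of -0.54 (-0.66 to -0.42). SNHG11, which hosts SNORA60 and SNORA71E, had 564 and 362 counts, a log2 ratio of -0.40 (-0.60 to -0.21). SNHG3, the host of SNORA73A and SNORA73B, had 10715 and 7086 counts, a log2 ratio of -0.36 (-0.40 to -0.32). These 3 were lower in the (R)-9b library by more than counting error without passing the rule for a call. SNHG31, the host of SNORA70I, had 371 and 304 counts, a log2 ratio of -0.050 (-0.27 to 0.17).

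DANCR, named for its part in holding back differentiation and the host of SNORA26, had 13388 and 11312 counts, a log2 ratio of -0.0053 (-0.042 to 0.031). It was the member of high count that lay nearest to vehicle. SNHG17, which hosts 4 snoRNAs of the SNORA71 family, had 1245 and 1066 counts, a log2 ratio of 0.014 (-0.11 to 0.13). SNHG4, which hosts SNORA74A and SNORA74D, had 1490 and 1439 counts, a log2 ratio of 0.19 (0.082 to 0.29). SNHG15, the host of SNORA9, had 1081 and 1249 counts, a log2 ratio of 0.45 (0.33 to 0.56).

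SNHG9 (ENSG00000255198, chr16:1964959-1965509, plus strand), the host of SNORA78, had the highest ratio of the 30 members with 100 or more counts. It had 1572 counts in vehicle and 3365 in (R)-9b, or 23.6 and 59.6 scaled CPM. Its level was 2.52-fold higher after (R)-9b, with a log2 ratio of 1.34 (1.25 to 1.42). Its annotated exon bases include the 127 bases of SNORA78. With snoRNA, scaRNA and miRNA genes set aside, SNHG9 shares no exon base with another gene. The next gene on chromosome 16, RPS2, lies on the opposite strand with 98 bases between the annotated starts, so that the pair is read in opposite directions. RPS2, which codes for a protein of the small ribosomal subunit and is itself a snoRNA host, had 419935 and 283472 counts, a log2 ratio of -0.33 (-0.34 to -0.32). The intervals of these neighbours do not overlap and lie on opposite sides of 0.

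Of the 4 hosts of both kinds, GAS5 had 11004 counts in vehicle and 7335 in (R)-9b, or 165 and 129.9 scaled CPM. Its log2 ratio was -0.35 (-0.39 to -0.30), well past counting error and inside 1.5-fold. TAF1D, which carries 2 C/D and 6 H/ACA box snoRNAs, had 2966 and 2309 counts, a log2 ratio of -0.12 (-0.20 to -0.044). SNHG25 had 765 and 664 counts, a log2 ratio of 0.034 (-0.12 to 0.19). SNHG12, the host of SNORD99 and 3 H/ACA box snoRNAs, had 616 and 771 counts, a log2 ratio of 0.56 (0.41 to 0.72). The 4 members thus ranged from -0.35 to 0.56 on the log2 scale.

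None of the scaRNA hosts was called. SNHG10, the host of SCARNA13, had 1662 and 1632 counts, a log2 ratio of 0.21 (0.11 to 0.31). SNHG20, the host of SCARNA16, had 454 and 384 counts, a log2 ratio of -0.0038 (-0.20 to 0.20). SNHG21, the host of SCARNA15, had 75 and 100 counts, a log2 ratio of 0.65 (0.21 to 1.10), and shares 72.9% of its exon bases with other genes. SNHG22, the host of SCARNA17, had 0 counts in vehicle and 4 in (R)-9b and was not compared.

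Of the members without a hosted RNA in RefSeq, SNHG27 had 52 and 64 counts, a log2 ratio of 0.54 (-0.013 to 1.09). MEG3, a maternally expressed imprinted RNA, had 2 and 8 counts, a log2 ratio of 2.24 whose counting interval ran from -0.087 to 5.51. SNHG28 was at 0 in both libraries. MEG3, SNHG28, SNHG18 and SNHG22 were therefore at the limit of detection at this depth, and no direction can be read for them.

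The first bases of the transcript were compared because many hosts are known as terminal oligopyrimidine genes. In the RefSeq promoter table (GRCh38.p14), 8 of the 30 members with an entry start with C followed by 4 or more pyrimidines, or 26.7%, against 1104 of 27305 genes, or 4.04%. SNHG6, SNHG9, SNHG15 and SNHG25 were not among the 30. The windows below show 20 bases before the start and 30 from it, with the run of pyrimidines from a starting C in capitals. They are shown for the 7 members with such a start and 100 or more counts, and then for 3 of the called members that lack it.
SNHG32 (chr6:31834896-31834945, plus): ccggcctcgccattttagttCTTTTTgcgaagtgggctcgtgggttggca
ZFAS1 (chr20:49278622-49278671, plus): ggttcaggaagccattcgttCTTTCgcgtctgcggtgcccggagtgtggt
SNHG5 (chr6:85678704-85678753, minus): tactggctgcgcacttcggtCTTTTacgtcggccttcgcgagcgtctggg
TAF1D (chr11:93741466-93741515, minus): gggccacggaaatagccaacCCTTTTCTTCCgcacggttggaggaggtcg
SNHG19 (chr16:2155329-2155378, minus): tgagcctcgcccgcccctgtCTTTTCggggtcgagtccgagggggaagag
SNHG4 (chr5:139274081-139274130, plus): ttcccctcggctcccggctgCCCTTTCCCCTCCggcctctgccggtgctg
SNHG12 (chr1:28581844-28581893, minus): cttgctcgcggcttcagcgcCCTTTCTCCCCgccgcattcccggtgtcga
SNHG8 (chr4:118278742-118278791, plus): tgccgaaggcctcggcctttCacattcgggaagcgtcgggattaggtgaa
EPB41L4A-AS1 (chr5:112160506-112160555, plus): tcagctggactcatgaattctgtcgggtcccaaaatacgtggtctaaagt
SNHG26 (chr7:22854220-22854269, plus): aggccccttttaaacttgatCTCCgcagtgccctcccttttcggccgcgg

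Among the 7 members with the start, the log2 ratios ran from -0.84 for SNHG32 to 0.56 for SNHG12 with a median of -0.12, and 4 intervals lay below 0 and 3 above. Among the 19 members with an entry, 100 or more counts and another start, GAS5 among them, the median was -0.050, with 9 intervals below 0, 5 above and 5 holding it. Of the 4 members with runs of 5 or 6 pyrimidines, SNHG32, ZFAS1 and SNHG5 were lower in the (R)-9b library and SNHG19 was slightly higher, at 0.087. SNHG4 and SNHG12, with runs of 13 and 11, were higher, and TAF1D, also with 11, was slightly lower. With so few members this is a description of starts and ratios, and the RefSeq start is 1 annotated base per gene, which need not be the start used in these cells.

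The snoRNAs themselves appear as separate rows of the same table. By position and strand 152 such rows lie inside the members, 84 of them in SNHG14. Poly-A selection leaves out most mature snoRNAs, which carry no poly-A tail, and 135 of the rows were at 0 in both libraries. Only 95 of the 152 rows hold no exon base of their host. For the others, reads that also fall in a host exon are ambiguous and may be missing from the counts. What part either has in the rows at 0 was not tested. Of the 17 rows with a count, 6 reached 10 counts over both libraries. None of these 6 overlaps an exon of its host. The sequences of 4 of them are given to show the kind of RNA counted, from the transcripts of GENCODE 29 (GRCh38). Capitals mark TGATGA (box C) within the first 20 bases and CTGA (box D) within the last 15 for a C/D box snoRNA, and ACA ending 3 bases before the 3′ end for an H/ACA box snoRNA.
SNORD104, in SNHG25 (chr17:64146083-64146152, plus): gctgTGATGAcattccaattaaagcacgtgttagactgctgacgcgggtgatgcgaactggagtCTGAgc
SNORD99, in SNHG12 (chr1:28578749-28578822, minus): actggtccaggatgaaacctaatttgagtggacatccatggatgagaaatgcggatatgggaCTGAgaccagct
SNORA13, in EPB41L4A-AS1 (chr5:112161485-112161617, plus): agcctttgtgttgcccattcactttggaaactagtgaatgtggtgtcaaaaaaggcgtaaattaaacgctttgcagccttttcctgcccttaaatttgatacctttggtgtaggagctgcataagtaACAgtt
SNORA73B, in SNHG3 (chr1:28508559-28508762, plus): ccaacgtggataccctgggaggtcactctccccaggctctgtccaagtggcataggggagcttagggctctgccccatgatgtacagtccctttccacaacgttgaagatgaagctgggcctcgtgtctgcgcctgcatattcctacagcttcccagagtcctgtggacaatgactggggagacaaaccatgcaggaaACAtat
Of all 288 sequences named SNORD in that annotation 64.2% hold both boxes in these windows, and of 149 named SNORA 75.2% hold ACA at that place. SNORD99 shows the exact box D alone.

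SNORD104 had most of the counts, 153 in vehicle and 175 in (R)-9b, a log2 ratio of 0.43 (0.11 to 0.75), where its host SNHG25 was at 0.034. SNORA73B had 4 and 31 counts, a log2 ratio of 3.19 (1.69 to 5.16), where its host SNHG3 was at -0.36. SNORA71B had 2 and 47 counts, a log2 ratio of 4.79 (2.86 to 7.88), where its host SNHG17 was at 0.014. For these 3 rows the interval of the snoRNA row lay above 0 while that of the host lay below 0 or held it, and for SNORA73B and SNORA71B the intervals of row and host do not overlap.

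SNORD99 had 4 and 16 counts, a log2 ratio of 2.24 (0.61 to 4.28), where its host SNHG12 was at 0.56. SNORA13 had 2 and 10 counts, a log2 ratio of 2.56 (0.33 to 5.79), where its host EPB41L4A-AS1 was at -0.71, again with intervals that do not overlap. SNORD116-17 in SNHG14 had 6 and 4 counts, a log2 ratio of -0.35 (-2.62 to 1.73). Of the 17 rows with a count, 13 had a scaled ratio above 1 and 4 below 1. Their sum was 180 and 301 counts, a log2 ratio of 0.98 (0.71 to 1.25), and SNORD104 held most of it in both libraries. Reads of a snoRNA and of an unspliced intron across the same bases cannot be told apart in these counts. The annotated row of SNORA71B spans 272 bases.

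**Figure D3:**
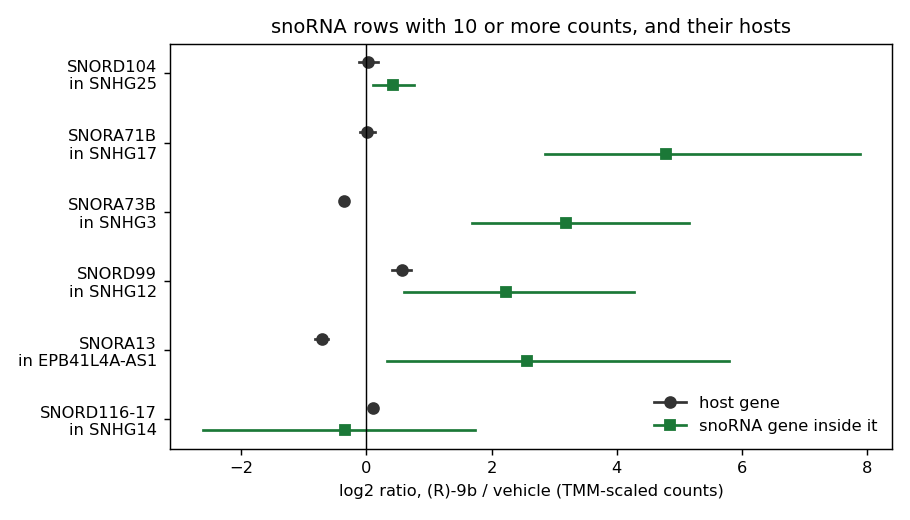
Log2 ratio of (R)-9b to vehicle (horizontal axis, TMM-scaled counts) for the 6 snoRNA rows with 10 or more counts (green squares) and for their host genes (black circles), with exact 95% intervals of counting error as bars. In 5 of the 6 pairs the snoRNA row lies to the right of its host, and its interval is wide because it rests on few counts. SNORA71B, SNORA73B, SNORD99 and SNORA13 passed the minimum only through their (R)-9b counts, which favours rows that are higher there.

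TAF1D was the member that the transcript table of the authors covers, with 22 transcripts. Their estimated counts summed to 1172 in vehicle and 1002 in (R)-9b, a log2 ratio of 0.022 (-0.10 to 0.15). Transcripts annotated as targets of nonsense-mediated decay went from 626 to 365 estimated counts, from 53.4% to 36.4% of the gene, a log2 ratio of -0.53 (-0.72 to -0.34). Transcripts with a retained intron went from 191 to 334 estimated counts, from 16.3% to 33.3%, a log2 ratio of 1.05 (0.79 to 1.32). Protein-coding transcripts had 300.4 and 239.9 estimated counts, 25.6% and 23.9% of the gene. The total of TAF1D thus stayed within counting error in this table while the shares of its annotated classes differed between the libraries.

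Single transcripts differed too. TAF1D-205, of the decay class, had 274 estimated counts in vehicle and 123 in (R)-9b, a log2 ratio of -0.91 (-1.23 to -0.60). TAF1D-215, which retains an intron, had 22.7 and 143 estimated counts, a log2 ratio of 2.88 (2.24 to 3.59). Another retained-intron transcript, TAF1D-210, had 135.6 and 80.7 estimated counts, a log2 ratio of -0.50 (-0.91 to -0.092). TAF1D-203, the main coding transcript, had 300.4 and 229 estimated counts, a log2 ratio of -0.14 (-0.40 to 0.11). Such counts are estimates that divide reads among transcripts sharing exons, and the intervals leave that uncertainty out.

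**Figure D4:**
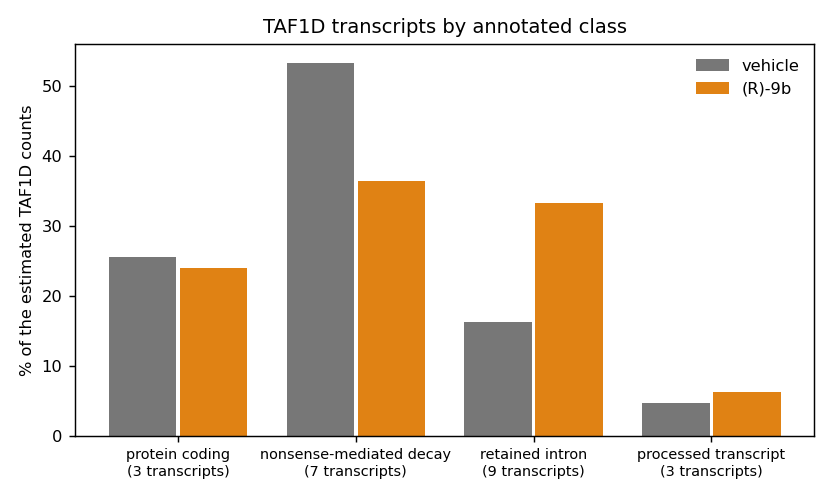
Share of the estimated TAF1D counts in each annotated transcript class (vertical axis, percent of the gene's total in that library; bars from 0), with vehicle in grey and (R)-9b in orange, 1 library each. The decay class holds 53.4% in vehicle and 36.4% in (R)-9b, and the retained-intron class 16.3% and 33.3%.

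Genes that act on snoRNAs or on host transcripts were set beside the members. Of 19 genes for the core proteins of snoRNA particles and their assembly none was called, against 7.74% of all genes called lower and 8.71% higher. The median log2 ratio of the 19 was 0.0049. Their highest was RUVBL1, an ATPase of the assembly machinery, at 10887 and 12091 counts, a log2 ratio of 0.39 (0.35 to 0.43). Their lowest was ZNHIT3, an assembly factor of C/D box particles, at 1778 and 1130 counts, a log2 ratio of -0.42 (-0.53 to -0.31).

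Of 20 nonsense-mediated decay factors none was called either, with a median of -0.0073, against 7.74% and 8.71% of all genes. SMG5, which recruits decay enzymes to phosphorylated UPF1, was the highest, at 12384 and 13720 counts, a log2 ratio of 0.39 (0.35 to 0.42). NBAS was the lowest, at 3738 and 2140 counts, a log2 ratio of -0.57 (-0.64 to -0.49). Both lists held genes above and below 0 by more than counting error, 6 and 5 of the particle genes and 7 and 6 of the decay factors. Over all genes the shares were 29.8% above and 31.1% below, and of the 15703 genes with 100 or more counts 5469 lay above and 6187 below.

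Ribosomal protein genes that host snoRNAs had the narrowest range of the 4 lists. None of 25 was called, against 7.74% of all genes called lower and 8.71% higher. Yet 23 had intervals wholly below 0. Over all genes 31.1% did, and of the 15703 genes with 100 or more counts 6187 did. The median log2 ratio of the 25 was -0.15. RPL10 was the lowest, at 57298 and 38430 counts, a log2 ratio of -0.34 (-0.36 to -0.32). RPL17 was the highest, at 774 and 852 counts, a log2 ratio of 0.38 (0.23 to 0.52). The next fewest counts of the list in vehicle were 19798, for RPL30. RPL17 shares 27.4% of its exon bases with RPL17-C18orf32 and AC100778.3. Reads in those bases may be missing from the counts, so that its value is uncertain. The non-coding hosts spread more widely than this, from -0.84 to 1.34 among those with 100 or more counts, although most of them rest on fewer counts than a ribosomal protein gene.

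Of 31 other protein-coding hosts 2 were called lower and 2 higher, or 6.45% each, close to the 7.74% and 8.71% of all genes. Their median log2 ratio was -0.11. HSPA9, a mitochondrial HSP70 chaperone, went from 50273 to 20144 counts, a log2 ratio of -1.08 (-1.11 to -1.06). IARS1, the isoleucyl-tRNA synthetase of the cytosol, went from 36616 to 17577 counts, a log2 ratio of -0.82 (-0.85 to -0.80). TNPO2, a nuclear import receptor, went from 10838 to 18438 counts, a log2 ratio of 1.00 (0.97 to 1.04). EIF4A1, the helicase of translation initiation, was listed at 55 and 214 counts, a log2 ratio of 2.20 (1.76 to 2.65). It shares 43.4% of its exon bases with SENP3-EIF4A1 and AC016876.2. Reads in those bases are ambiguous and may be missing from the counts, so that its value is uncertain. Other long non-coding RNAs with 100 or more counts, 1466 genes, had a median log2 ratio of -0.061, beside -0.027 for the 30 members of that depth.

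**Figure D5:**
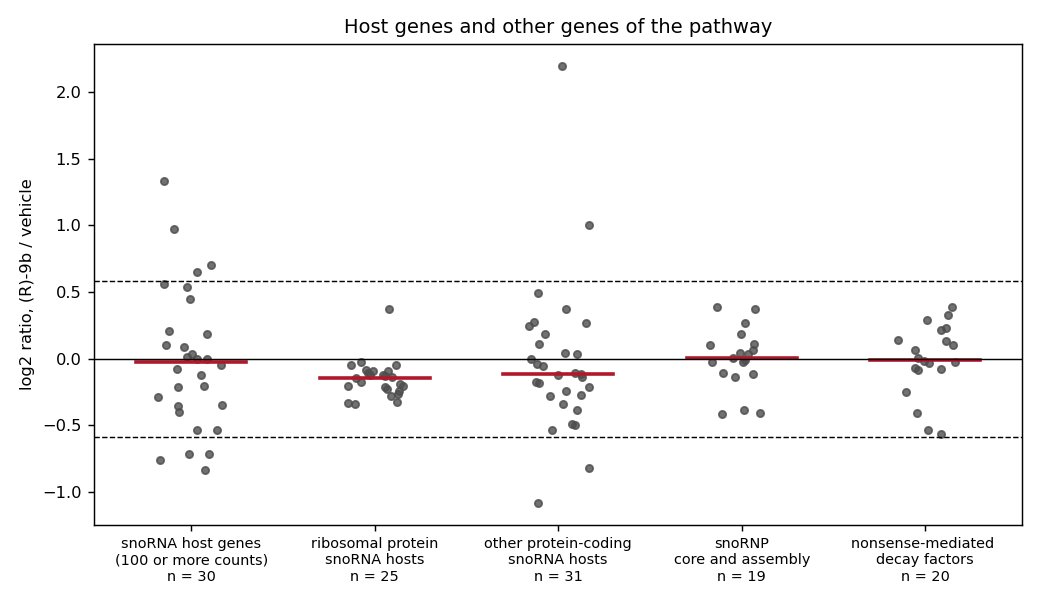
Log2 ratio of (R)-9b to vehicle (vertical axis) for the host genes with 100 or more counts and for 4 lists (horizontal axis, number of genes under each name); each point is 1 gene, red bars are medians and dashed lines mark 1.5-fold. The medians lie between -0.15 for ribosomal protein hosts and 0.0049 for particle proteins, and the points of the non-coding and of the other protein-coding hosts spread past the dashed lines.

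The calls on single members depend on the scaling and on how error is drawn. With library totals or DESeq2 size factors ZFAS1 was called lower as well, with library totals SNHG26 was no longer called, and with the upper quartile EPB41L4A-AS1 was no longer called, at -0.68 (-0.78 to -0.57). Among genes with 1 to 20 counts 72.2% of the values in vehicle and 70.3% in (R)-9b were even. When all counts were halved, as if both mates of a pair had been counted, SNHG32 and SNHG8 stayed lower and SNHG9 higher. With a coefficient of variation of 0.1 added to each library, SNHG9 was the single member called.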

How the data were processed

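Poly-A selected RNA of C4-2B cells was sequenced in paired reads of 150 bases, with 1 library for vehicle and 1 for (R)-9b. The authors deposited gene counts of uniquely aligned unambiguous reads, the same values as CPM (count over library total) and as moderated log2 CPM, and estimated counts per transcript. The submitters' processing notes name STAR 2.5.1a, featureCounts 1.4.6-p5, Salmon 0.8.2 and hg38, without saying which file each tool made. The study's methods give another STAR version, and the strand setting is not given in the sources used here. No per-sample column was left out.

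Repeated lines were dropped (60871 lines, 60671 genes). Counts were scaled with TMM (edgeR 4.0.16, R 4.3.3; factors 1.02 for vehicle and 0.979 for (R)-9b). Ratios and exact (Clopper-Pearson) 95% intervals given the sum of both counts came from scipy 1.17.1 under Python 3.11.15, tables from pandas 2.3.3 with numpy 2.4.6 and figures from matplotlib 3.10.9. Intervals cover counting error only, since reads are not independent molecules and no replicates exist. Depth makes them narrow for abundant genes and wide below about 100 counts. Estimated counts were rounded for intervals. Exon bases shared with snoRNA, scaRNA and miRNA genes were not counted as shared. Exon bases, shared bases and positions came from GENCODE 29 (GRCh38), which is not the annotation the authors counted with, and starts and hosted snoRNA names from RefSeq.

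The members and lists were chosen with earlier results of these data known. Every member with 100 or more counts was given its values, and of each list the genes called, or with none called the highest and lowest. RPS2 and the TAF1D transcripts named were chosen after their values were seen. The computation of intervals and calls was tested on simulated counts, which does not bear on the treatment. Alternatives were library totals, DESeq2 1.42.0 size factors, upper quartile scaling, scaling without mitochondrial genes, halved counts, an added coefficient of variation of 0.1, other minimum counts (1 and 50), 5 counts added, other call rules and the other deposited values.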

Additional observations from a re-analysis of the deposited data

How the results depend on the processing

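No paired analysis was possible because there was 1 library per condition, and for the same reason no replicate could be left out. Of 271 single-member comparisons over the 30 members with 100 or more counts, 249 ratios stayed within the counting interval and 21 moved beyond it. All 21 were under other scalings or the deposited CPM values. Halving the counts or adding the coefficient of variation leaves the ratio itself unchanged, so those comparisons could not move. The deposited CPM values repeat the scaling by library totals. The 249 are therefore not as many separate checks. TAF1D changed sign, to 0.022, with the estimated transcript counts. The number of members called higher was 1 with library totals, 1 with halved counts, 1 with the added coefficient of variation, 1 by the 2-fold rule and 5 by the point ratio, and the number called lower was 4 with library totals, with DESeq2 size factors and by the point ratio, 2 with the upper quartile and with halved counts, 0 with the added coefficient of variation and 0 by the 2-fold rule. The 5 by the point ratio include MEG3, at 2 and 8 counts in vehicle and (R)-9b. The share of all genes called was computed for the main and the 2-fold rule alone. Calls under the other settings therefore have no background share and cannot be read as more or fewer than in the whole table. The log2 ratio of the summed counts of the members was -0.21 with library totals, -0.18 with DESeq2 size factors and -0.12 with the upper quartile. The median of the ribosomal protein hosts was -0.21 with library totals, with deposited CPM and with moderated log2 CPM, -0.17 with DESeq2 size factors, -0.11 with the upper quartile and -0.12 with transcript counts. The median of the other protein-coding hosts was -0.17 with library totals and with both deposited CPM forms, and 1 of them was called lower with the added coefficient of variation, 1 lower by the 2-fold rule and 1 higher by it. With transcript counts 2 particle genes were called higher and 2 decay factors lower. Members other than TAF1D had no value in the transcript table, and CPM values gave no interval and so no calls. Members near 10 counts or fewer are limited by depth.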

Other observations

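snoRNA and scaRNA rows outside the members were looked at in the same way. Of 840 such rows 35 had 10 or more counts, of which 8 were called higher and 1 lower. These are 22.9% and 2.86%, where 8.71% and 7.74% of all genes were. Of the 6 rows inside the members 3 were called higher and 0 lower. These 3, SNORA71B, SNORA73B and SNORD99, passed the minimum only through their (R)-9b counts, which favours rows that are higher there. Rows outside the members were not checked for this. Of all 23446 genes compared 15703 had 100 or more counts, so shares of mostly low-count rows are not on equal terms. The summed counts of all 840 were 657 in vehicle and 830 in (R)-9b, a log2 ratio of 0.58 (0.43 to 0.72). The rows inside the members gave 0.98 (0.71 to 1.25), and no test of the difference was made.

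Transcript classes were also summarised over the whole transcript table, because the classes of TAF1D differed between the libraries. Among transcripts with 10 or more estimated counts, the 10670 with a retained intron had a median log2 ratio of 0.72, and 31.0% were called higher and 7.82% lower. Their share of the estimated counts, over more classes than those named here, was 4.08% in vehicle and 4.87% in (R)-9b. The 6676 transcripts of the nonsense-mediated decay class had a median of -0.076, with 16.5% called higher and 19.1% lower. The 36381 protein-coding transcripts had a median of -0.047, with 13.1% called higher and 15.7% lower, and the 7338 processed ones a median of 0.092, with 14.6% and 11.8%. The 2 libraries are single, and these values describe them alone.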
